A study of Homo sapiens with 6 samples.

Results

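The genes described here were 31 genes of cholesterol and fatty acid synthesis, chosen by name from the table of 67060 genes. The rule lists them as genes regulated by the sterol regulatory element binding proteins (SREBPs). Whether each one is an SREBP target was not tested. That rule names them without using a measured value, but the members were chosen with earlier results of these data known. All 31 were found and passed the filter on low counts, as did 24500 genes in all. They fell into 7 genes of the mevalonate pathway, 3 from squalene to lanosterol, 8 from lanosterol to cholesterol, 5 encoding SREBPs or their regulators, 1 sterol carrier, and 7 of fatty acid synthesis, elongation and desaturation. RNA came from SH-SY5Y, a human neuroblastoma cell line that the labels give as neuronal progenitor. One group received Ad CMV 3xFlag-*Esrrg*, an adenovirus that expresses the mouse coding sequence of the nuclear receptor ERRγ with a 3xFlag tag from the CMV promoter (libraries 2, 3 and 4, called ERRg). The control group received Ad CMV GFP (libraries 1, 3 and 4). Both groups were given 0.5 µl of virus and were collected after 24 h, so the comparison is between 2 infected groups and holds no uninfected cells.

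Cholesterol is built from acetyl-CoA through mevalonate, isoprenoid diphosphates, squalene and lanosterol, and a last series of enzymes turns lanosterol into cholesterol. Fatty acids are built from the same acetyl-CoA, which ACLY makes from citrate in the cytosol, and are then elongated and desaturated. When membrane sterol is low, SCAP carries the SREBPs from the endoplasmic reticulum to the Golgi, where they are cut, and the released part activates genes of both pathways, while the INSIG proteins hold SCAP back when sterol is plentiful. Neurons make their own cholesterol early in development and obtain much of it from astrocytes later.

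Reads counted on genes numbered 24969759 to 29700980 in the GFP libraries and 26513620 to 40859666 in the ERRg libraries. *ESRRG* itself was listed at 2357, 2796 and 2876 counts in GFP libraries 1, 3 and 4 and at 15228, 25994 and 26497 counts in ERRg libraries 2, 3 and 4. Every ERRg library was above every GFP library, and the log2 fold change was 3.02 (standard error, SE, 0.14; adjusted p = 6.28e-07, edgeR's quasi-likelihood test with Benjamini-Hochberg adjustment over all genes tested). Reads of the mouse insert and of the human gene are not separated in this count. Reads assigned to no counted feature are called reads outside genes here. Whether they lay in introns or between genes was not resolved. They made up 51.3% to 52.2% of the reads of the GFP libraries, against 46.6%, 31.6% and 29.5% in ERRg libraries 2, 3 and 4. Of 7 markers of adrenergic neuroblastoma, 6 exceeded 3 counts, while *TH*, which encodes tyrosine hydroxylase, was at 0 counts in every library. The summed level of those markers was 582 to 635 CPM in GFP libraries and 419.5 to 559 CPM in ERRg libraries, with *PHOX2A* called higher (log2 fold change 0.81) and *GATA2* and *DBH* called lower (-1.08 and -2.64). That of 5 mesenchymal markers was 2522 to 2604 CPM against 3216 to 3354 CPM, most of it *FN1* (0.46, not called), while *YAP1* was called lower (-0.67) and *PRRX1*, *WWTR1* and *SNAI2* were not called (0.05, 0.14 and -0.30). None of 3 hepatocyte markers and 1 of 3 adipocyte markers (*PLIN1*) exceeded 3 counts, and 3 of 3 glial markers summed to 6.54 to 10.3 CPM. The part of these library differences in the results below was not tested. The labels do not say whether the libraries of a group came from separate cultures, so p-values measure the spread between these libraries, which may be technical.

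Levels are given as counts per 1000000 reads on genes (CPM) scaled by the TMM factors, and differences as log2 fold changes of ERRg over GFP from a fit across all 24500 genes. A gene is said to have risen or fallen when its Benjamini-Hochberg adjusted p was below 0.05 and its fold change at least 1.5 in either direction. By this rule 20 of the 31 genes rose with ERRg and none fell, while 11 did not pass. Of all genes tested 34.1% were called, 17.3% as higher and 16.8% as lower, and of the 13746 protein-coding genes tested 38.3% were called, 25.9% as higher and 12.4% as lower. Of all calls 50.7% were higher, against 62.7% with DESeq2 and 22.5% with scaling by library size alone. The median log2 fold change was 0.71 over the 31 genes, -0.10 over all genes tested and 0.12 over protein-coding genes. By the adjusted p alone 23 of the 31 genes were higher and 1 (*INSIG2*) was lower, against 24.3% higher and 23.5% lower of all genes tested (47.8% together) and 37.6% and 22.4% of protein-coding genes (60% together). At an unadjusted p below 0.05 the counts were 25 higher and 2 lower. DESeq2 called 20 higher and 0 lower. In 27 of the 31 genes every ERRg library was above every GFP library, and in *SC5D* and *INSIG2* every ERRg library was below. The groups overlapped in *FDFT1* and *ACACA* only. Over all genes tested the groups did not overlap in 58.1%, with ERRg above in 27.8% and below in 30.3%, and over protein-coding genes in 70.3%, with ERRg above in 41.9% and below in 28.4%.

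The rise was not even across the ERRg libraries. Set against the mean of the GFP libraries on the log2 scale, the median of the 31 genes was 0.57 in ERRg library 2, 0.76 in library 3 and 0.86 in library 4. All 20 genes that rose had their smallest change in ERRg library 2. The share of all genes called higher with the same order was not counted. Library 2 is also the ERRg library whose share of reads outside genes was closest to that of the GFP libraries. Its *ESRRG* level was the lowest of the ERRg libraries too, at 570 CPM against 772 and 778 CPM in libraries 3 and 4. Read composition and *ESRRG* level cannot be told apart here, and neither was tested. When library 2 alone was compared with the 3 GFP libraries, 14 of the 31 genes were called higher and none lower, where 9.60% of all genes in that fit were called higher and 7.63% lower. That fit takes its spread from the GFP libraries and assumes that the lone library varies like them. The plot of each library shows these shifts gene by gene.

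**Figure D1:**
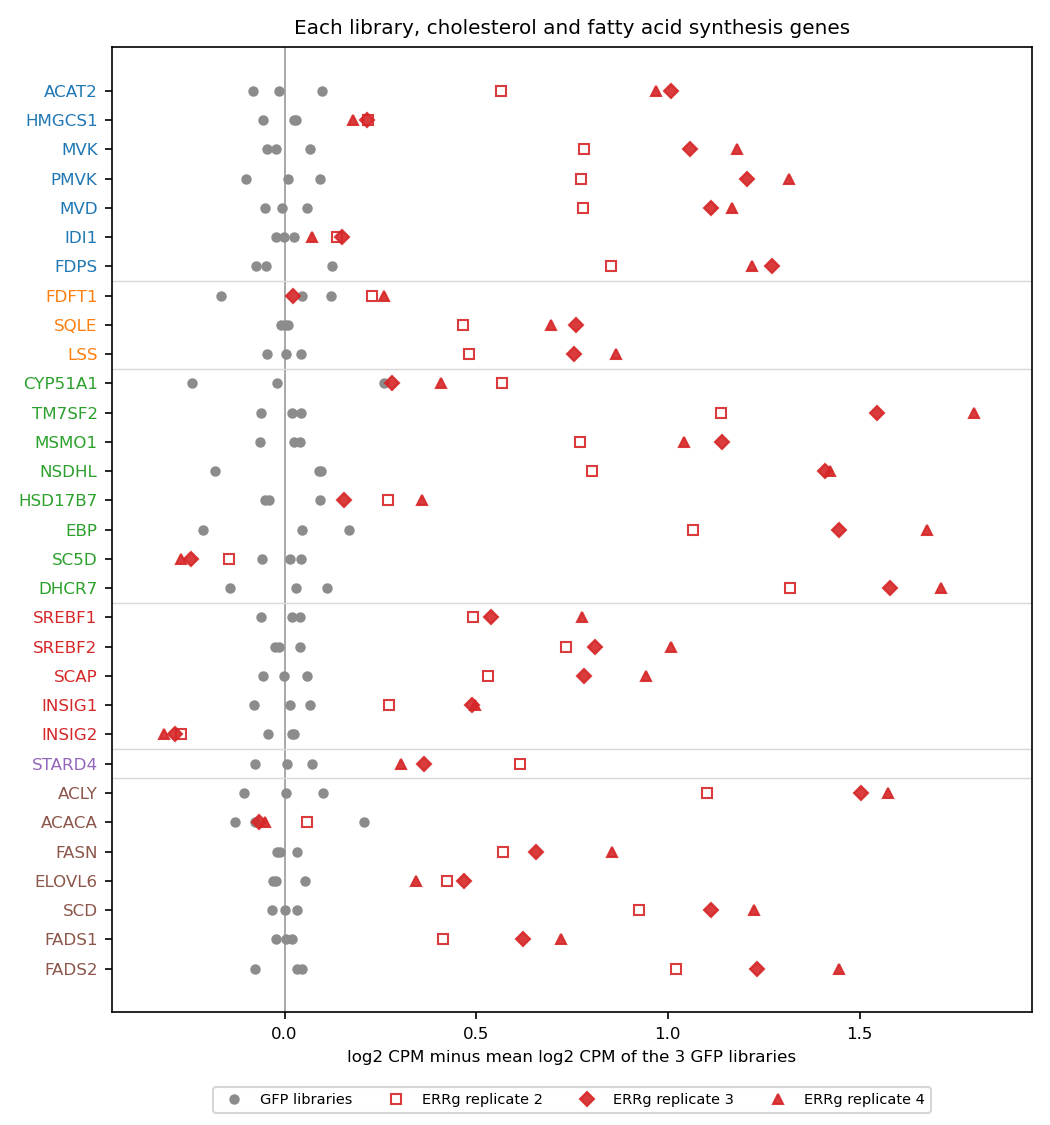
Each row is one gene, grouped by role, and the horizontal axis gives log2 CPM minus the mean log2 CPM of the 3 GFP libraries. Grey circles are the GFP libraries and red symbols the 3 ERRg libraries, and in the 20 genes that rose the open square of ERRg library 2 lies nearest to the grey circles.

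Promoter sequence was looked at as a description, since genes known as SREBP targets are in part known by elements of their promoters. The RefSeq table gave 37 promoters of 300 bases for 27 of the genes, and the table as a whole holds 35116 promoters of the same length for 27305 genes. CCAAT, the letters bound by NF-Y, or its reverse complement ATTGG stood in promoters of 20 of the 27 genes, against 39.7% of all genes. By promoter the share was 64.9%, against 34.6% of all promoters. GGGCGG, the letters of an Sp1 site, was present on either strand in 26 of the 27 genes, against 48.3% of all genes. By promoter its share was 89.2%, against 44.95% of all. The sterol regulatory element, searched as TCACNCCAC on both strands, was present in *SREBF2* only (1.13% of all promoters). The E-box CACGTG was present in 4 genes (*INSIG1*, *LSS*, *SC5D* and *SCAP*), against 8.77% of all genes, and in 13.5% of the 37 promoters, against 7.26% of all. Promoters of the same gene can overlap, so a site can be counted more than once among promoters. Neither the ERR response element TCAAGGTCA nor its core AAGGTCA was found in these windows, and they were found in 0.353% and 3.92% of all promoters. The core lies within the longer element. Among genes with a promoter, CCAAT was found in 13 of the 17 that rose and 7 of the 10 that did not pass, and GGGCGG in 16 of 17 and 10 of 10. A match is a stretch of letters and does not show that a factor binds there.

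Sequences of 6 promoters are shown from 230 to 11 bases before the RefSeq start (GRCh38.p14), 5′ to 3′ on the strand of the gene. None overlaps an annotated exon of a protein-coding gene, and exons of other genes were not checked. Capitals mark the NF-Y and Sp1 letters on either strand and, in *SREBF2*, the sterol regulatory element. *SREBF2* is shown for that element, *ACLY* and *SCD* as the genes with the highest levels, *MSMO1* and *EBP* as sterol genes that rose, and *IDI1* as a sterol gene that did not pass although its promoter holds the same letters.
SREBF2, chr22:41832875-41833094, plus strand: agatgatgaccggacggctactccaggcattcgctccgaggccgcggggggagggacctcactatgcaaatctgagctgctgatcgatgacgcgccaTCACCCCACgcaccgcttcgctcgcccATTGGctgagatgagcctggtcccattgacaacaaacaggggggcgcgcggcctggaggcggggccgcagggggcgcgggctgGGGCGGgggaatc
ACLY, chr17:41919033-41919252, minus strand: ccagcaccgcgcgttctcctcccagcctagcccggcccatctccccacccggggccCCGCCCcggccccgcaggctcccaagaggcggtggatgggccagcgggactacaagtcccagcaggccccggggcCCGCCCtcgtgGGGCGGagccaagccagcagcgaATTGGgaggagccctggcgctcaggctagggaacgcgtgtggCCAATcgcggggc
SCD, chr10:100347003-100347222, plus strand: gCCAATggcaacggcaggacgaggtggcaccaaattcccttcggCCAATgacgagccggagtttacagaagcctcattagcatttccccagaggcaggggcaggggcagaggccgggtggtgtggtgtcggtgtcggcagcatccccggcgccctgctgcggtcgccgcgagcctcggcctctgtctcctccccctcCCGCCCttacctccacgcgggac
MSMO1, chr4:165327439-165327658, plus strand: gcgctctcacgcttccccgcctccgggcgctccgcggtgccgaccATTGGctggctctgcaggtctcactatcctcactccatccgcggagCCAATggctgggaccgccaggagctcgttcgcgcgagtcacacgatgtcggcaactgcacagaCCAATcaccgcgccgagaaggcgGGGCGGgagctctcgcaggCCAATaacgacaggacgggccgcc
EBP, chrX:48521578-48521797, plus strand: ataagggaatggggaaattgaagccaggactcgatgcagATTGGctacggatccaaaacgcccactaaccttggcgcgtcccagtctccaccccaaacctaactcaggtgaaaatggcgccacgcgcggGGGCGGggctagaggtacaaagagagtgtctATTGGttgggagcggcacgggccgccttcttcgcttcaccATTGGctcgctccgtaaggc
IDI1, chr10:1049130-1049349, minus strand: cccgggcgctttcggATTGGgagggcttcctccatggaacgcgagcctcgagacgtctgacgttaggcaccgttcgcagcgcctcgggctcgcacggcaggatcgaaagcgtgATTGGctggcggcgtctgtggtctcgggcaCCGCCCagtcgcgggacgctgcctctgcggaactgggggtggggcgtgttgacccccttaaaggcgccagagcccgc
The sequence of *IDI1* holds CCAAT or ATTGG 2 times, as do those of *ACLY* and *SCD*. *MSMO1* has 4 such matches and *EBP* has 3. These promoters were picked for display. Of the 17 genes that rose and have a promoter, 13 hold such a match, while *FADS1*, *PMVK*, *SCAP* and *SREBF1* hold none. A link between the number of matches and the change was not tested.

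In the mevalonate pathway 5 of 7 genes rose, with a median log2 fold change of 1.02. *FDPS*, which makes farnesyl diphosphate (chr1:155308748-155320666, plus strand), was at 34.97, 39.4 and 34.3 CPM in the GFP libraries and 65.3, 87.5 and 84.3 CPM in the ERRg libraries. All ERRg values were above all GFP values, with a log2 fold change of 1.13 (SE 0.12, adjusted p = 8.43e-05). *MVK*, *PMVK* and *MVD* encode the kinases and the decarboxylase that act one after the other on mevalonate. *MVK* was at 13.6, 12.8 and 12.6 CPM with GFP and 22.4, 27.2 and 29.5 CPM with ERRg. *PMVK* was at 19.3, 22.1 and 20.8 CPM and 35.5, 47.9 and 51.7 CPM. *MVD* was at 12.6, 12.3 and 13.2 CPM and 21.8, 27.5 and 28.6 CPM. In each of these kinases and the decarboxylase the level about doubled, with folds of 2.03, 2.17 and 2.05 and adjusted p values of 0.000117, 0.000151 and 0.000116. *ACAT2*, the cytosolic thiolase that joins acetyl-CoA units, rose 1.82-fold from 22.6, 25.6 and 23.7 CPM to 35.4, 48.2 and 46.9 CPM (adjusted p = 0.000379).

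The other genes of this branch did not pass. *HMGCS1*, which forms the precursor of mevalonate, was at 40.97, 40.8 and 38.6 CPM with GFP and 46.6, 46.6 and 45.4 CPM with ERRg. *IDI1*, the isomerase that makes dimethylallyl diphosphate, was at 35.5, 34.9 and 34.4 CPM and 38.5, 38.8 and 36.8 CPM. In both genes the groups did not overlap, but the ERRg mean was only 1.15 and 1.09 times the GFP mean (adjusted p = 0.0733 and 0.271), and with scaling by library size alone it was lower (log2 fold changes of -0.11 and -0.20). Within the mevalonate pathway the folds thus ran from 1.09 to 2.18. Exons of *HMGCS1* and *IDI1* overlap exons of genes on the opposite strand over 37.7% and 14.97% of their length, and those of *ACAT2* and *FDPS* over 22.2% and 18.6%. The strand setting used for counting is not given in the sources used here, so reads of such partners cannot be told apart.

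Between squalene and lanosterol 2 of 3 genes rose. *SQLE*, the epoxidase that adds oxygen to squalene (chr8:124998497-125022283, plus strand), was at 47.3, 47.5 and 46.9 CPM with GFP and 65.3, 80.1 and 76.6 CPM with ERRg. *LSS*, which closes the sterol rings, was at 9.29, 8.73 and 9.03 CPM and 12.6, 15.3 and 16.5 CPM. Every ERRg library was above every GFP library in both, with log2 fold changes of 0.65 and 0.71 (SE 0.10 and 0.13, adjusted p = 0.000502 and 0.00106). *FDFT1*, squalene synthase, had only 55, 74 and 75 counts in the GFP libraries and 69, 75 and 90 counts in the ERRg libraries, the groups overlapped, and the log2 fold change was 0.17 with an SE of 0.19 (adjusted p = 0.476), or -0.15 with scaling by library size alone. Words of 31 bases of *LSS* transcripts recur on alternate contigs of GRCh38 for 79.0% of the words. For *FDFT1* 4.11% of the words recur anywhere else. Reads aligned to several places were not counted, and the effect of this on either gene was not tested.

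From lanosterol to cholesterol 5 of 8 genes rose, and this group held the largest folds of the 31 genes. *DHCR7*, the reductase of 7-dehydrocholesterol at the end of the pathway (chr11:71428193-71452868, minus strand), was at 25.8, 30.7 and 29.1 CPM in the GFP libraries and 71.03, 85.2 and 93.4 CPM in the ERRg libraries. The lowest ERRg value was more than 2 times the highest GFP value, and the log2 fold change was 1.54 (SE 0.12, adjusted p = 1.38e-05). *TM7SF2*, a sterol reductase that acts soon after lanosterol (chr11:65111845-65116384, plus strand), was at 56.01, 55.1 and 52.1 CPM and 119.7, 159 and 189 CPM. Its values did not overlap, with a log2 fold change of 1.52 (SE 0.15, adjusted p = 4.97e-05), although the ERRg libraries differed among themselves. *EBP*, the sterol isomerase (chrX:48521799-48528716, plus strand), was at 5.53, 5.08 and 4.23 CPM and 10.4, 13.5 and 15.8 CPM. It rose 2.69-fold (adjusted p = 0.000145), and another annotated gene shares 36.4% of its exon length on the same strand. *NSDHL* and *MSMO1* encode enzymes that remove methyl groups of the sterol ring. *NSDHL* was at 19.9, 23.99 and 24.1 CPM and 39.4, 60.1 and 60.6 CPM, a 2.36-fold rise (adjusted p = 0.000207). *MSMO1* was at 46.1, 43.4 and 46.6 CPM and 77.5, 100.1 and 93.6 CPM, a 1.99-fold rise (adjusted p = 8.66e-05).

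The remaining sterol enzymes did not pass. *SC5D*, the desaturase that makes 7-dehydrocholesterol and so acts directly before *DHCR7*, was at 42.5, 41.7 and 39.6 CPM with GFP and 37.3, 34.8 and 34.2 CPM with ERRg. Every ERRg library was below every GFP library, but the log2 fold change of -0.22 (SE 0.09) had an adjusted p of 0.0648 and was 0.05 after correction for GC content and length. The neighbouring steps of *SC5D* and *DHCR7* therefore had values on opposite sides of 0, and the difference between them was not tested. *HSD17B7*, the keto-sterol reductase, was at 15.7, 15.6 and 17.3 CPM and 19.5, 18.03 and 20.7 CPM, with a log2 fold change of 0.26 that was -0.06 with scaling by library size alone (adjusted p = 0.0576). *CYP51A1*, the demethylase of lanosterol, had 50, 67 and 50 counts with GFP and 72, 74 and 82 counts with ERRg and did not pass (log2 fold change 0.42, SE 0.21, adjusted p = 0.12). Words of 31 bases recur elsewhere in the genome for 64.6% of the words of *HSD17B7* and 50.1% of those of *CYP51A1*, and genes on the same strand share 68.2% of the exon length of *CYP51A1*. Across all 18 sterol synthesis enzymes 12 rose, with a median log2 fold change of 0.93.

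Of the 5 genes of the SREBP system 3 rose. *SREBF2*, which encodes SREBP2, the factor mainly tied to sterol genes (chr22:41833105-41907306, plus strand), was at 67.9, 71.1 and 68.4 CPM in GFP libraries and 115, 121 and 139 CPM in ERRg libraries. Its values did not overlap, and the log2 fold change was 0.86 (SE 0.10, adjusted p = 0.000112). The call of *SREBF2* was lost with scaling by library size alone and after correction for GC content and length. *SREBF1*, which encodes the SREBP1 forms tied mainly to fatty acid genes (chr17:17810399-17837002, minus strand), was at 57.2, 53.3 and 56.4 CPM and 78.3, 80.8 and 95.3 CPM. Its 1.52-fold rise was just past the limit of 1.5 (adjusted p = 0.000779), and the call was lost without GFP library 3 or ERRg library 4, when the log2 fold change was as low as 0.52. *SCAP*, the escort protein, rose 1.70-fold, from 57.7, 62.4 and 59.8 CPM to 86.6, 103 and 115 CPM (adjusted p = 0.000415). The INSIG genes, whose proteins retain SCAP, did not pass the fold limit. *INSIG1*, itself a well-known SREBP target, was at 52.9, 47.8 and 51.1 CPM and 61.1, 71.1 and 71.4 CPM, with a log2 fold change of 0.42 (adjusted p = 0.00507). Left without ERRg library 2, *INSIG1* reached 0.60 on the log2 scale and was called higher. *INSIG2* was at 22.03, 21.02 and 21.96 CPM and 17.95, 17.8 and 17.4 CPM, below every GFP value in every ERRg library, with a log2 fold change of -0.29 (adjusted p = 0.0242). *STARD4*, a cytosolic sterol carrier, was at 136, 130.002 and 123 CPM and 198, 167 and 159.98 CPM. Its log2 fold change of 0.43 also missed the fold limit (adjusted p = 0.0073), and here ERRg library 2 held the highest value of the 3.

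In fatty acid synthesis 5 of 7 genes rose, with a median log2 fold change of 0.70, and several of these were the most abundant of the 31 genes. *ACLY*, ATP citrate lyase (chr17:41866917-41930542, minus strand), was at 438, 505 and 472 CPM with GFP and 1011, 1335 and 1401 CPM with ERRg. The groups were far apart, with a log2 fold change of 1.41 (SE 0.14, adjusted p = 5.77e-05). *SCD*, the desaturase that makes monounsaturated fatty acids (chr10:100347233-100364826, plus strand), was at 443, 433 and 453 CPM and 841, 957 and 1035 CPM. It rose 2.13-fold (adjusted p = 6.87e-05), and words of 31 bases recur elsewhere in the genome for 29.7% of its words. *FADS2* and *FADS1*, the desaturases of polyunsaturated fatty acids, lie on opposite strands of chromosome 11 and overlap in part of their exons. *FADS2* was at 229.7, 249.98 and 248 CPM and 492, 569.7 and 661 CPM, a 2.37-fold rise (adjusted p = 5.5e-05). *FADS1* was at 155, 158 and 159.6 CPM and 209.6, 242 and 259.7 CPM, a 1.51-fold rise (adjusted p = 0.00107). That of *FADS1* was just past the limit, and its call was lost without GFP library 1, ERRg library 3 or ERRg library 4, with a lowest log2 fold change of 0.53. *FASN*, fatty acid synthase, rose 1.62-fold, from 383, 381 and 395 CPM to 573, 609 and 698 CPM (adjusted p = 0.00056).

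*ELOVL6*, which elongates saturated fatty acids, was at 59.9, 56.9 and 56.6 CPM with GFP and 77.6, 80.00 and 73.3 CPM with ERRg, above every GFP value in each ERRg library but under the fold limit (log2 fold change 0.41, adjusted p = 0.00305). *ACACA*, acetyl-CoA carboxylase 1, which makes malonyl-CoA for *FASN*, was at 9.97, 9.60 and 12.1 CPM and 10.96, 10.04 and 10.2 CPM. The groups overlapped, with a log2 fold change of -0.03 (SE 0.13, adjusted p = 0.871). Along the chain from citrate to long fatty acids, *ACLY*, *FASN* and *SCD* thus rose while *ACACA* did not pass. Words of 31 bases recur on alternate contigs for 84.4% of the words of *ACACA*, and the effect of this on its count was not tested.

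Levels were compared between genes only per length, as CPM per kilobase of exon (FPKM). *ACLY* was highest in both groups, at 90.5 ± 6.44 FPKM with GFP and 239.8 ± 40.1 FPKM with ERRg (SD, n = 3). *SCD* came next at 84.4 ± 1.90 and 180.01 ± 18.7 FPKM. In the GFP libraries these neighbours differed by less than the SD of *ACLY*, and in the ERRg libraries by more than either SD. *FASN* followed at 41.4 ± 0.799 and 67.2 ± 6.91 FPKM. By this length the highest sterol enzyme with GFP was *PMVK* at 20.7 ± 1.39 FPKM, and with ERRg *TM7SF2* at 45.8 ± 10.2 FPKM and *PMVK* at 44.9 ± 8.45 FPKM did not differ beyond their SD. At the low end were *CYP51A1* (0.436 ± 0.0791 and 0.583 ± 0.0596 FPKM) and *FDFT1* (0.434 ± 0.0448 and 0.489 ± 0.0439 FPKM). Taking the longest transcript in place of all exons multiplied the levels by 1.00 to 2.41, depending on the gene, and changed parts of this order. *ACLY* and *SCD* stayed the highest, now apart by more than their SD with GFP too (109 ± 7.77 and 84.4 ± 1.90 FPKM). *FADS2* (47.8 ± 2.19 and 113 ± 16.7 FPKM) was then above *FASN* (45.6 ± 0.880 and 74.1 ± 7.61 FPKM), by more than their SD with ERRg. *TM7SF2* (25.97 ± 0.978 and 74.5 ± 16.7 FPKM) was then above *PMVK*, whose values did not move.

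**Figure D2:**
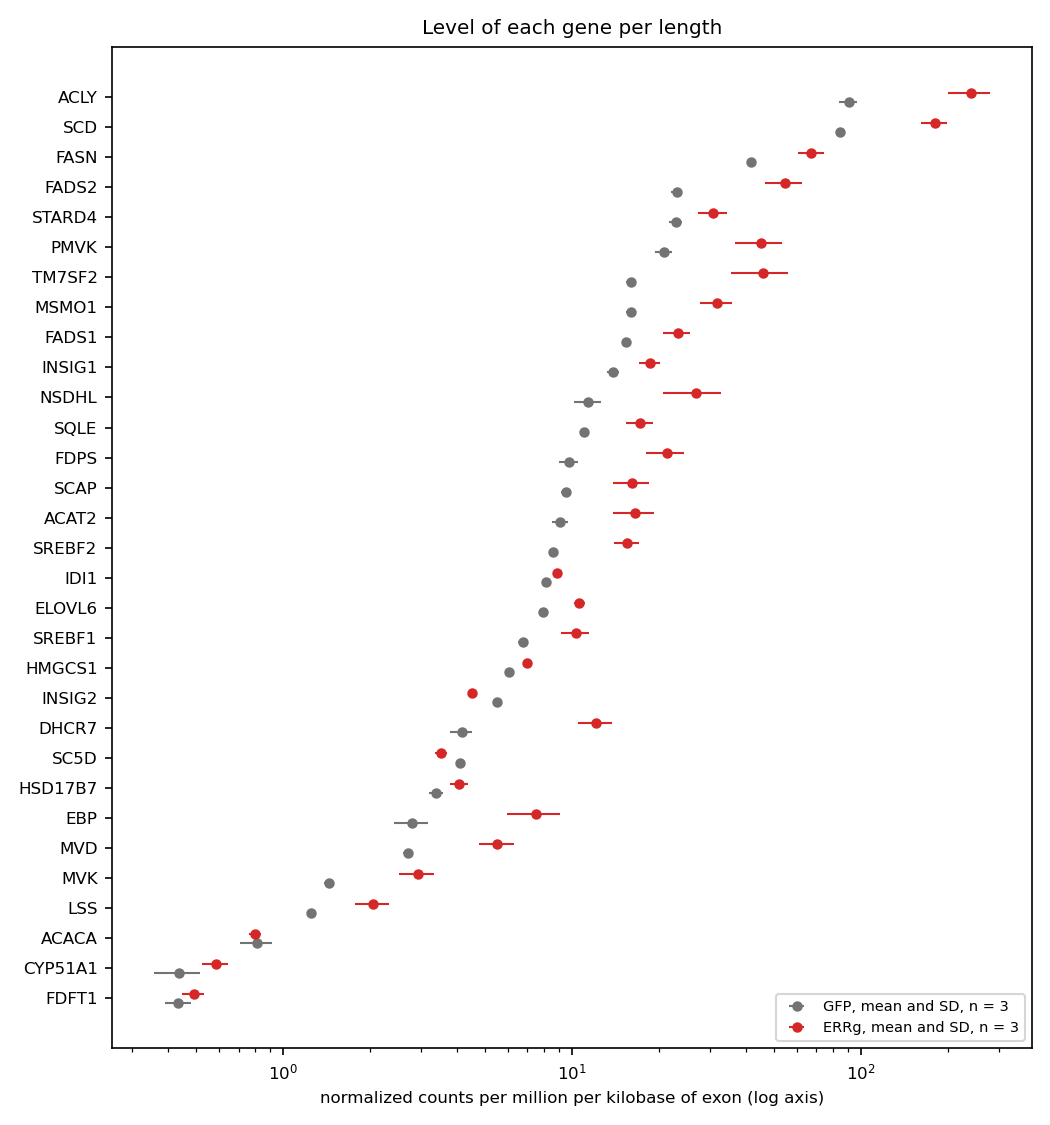
Mean level per length of each gene, in TMM-scaled CPM per kilobase of exon on a log axis, for the 3 GFP libraries (grey) and the 3 ERRg libraries (red), with bars of 1 SD. Genes are ordered by their GFP level, from *ACLY* at 90.5 to *FDFT1* at 0.434, and the red points lie to the right of the grey ones in all but *INSIG2*, *SC5D* and *ACACA* with this scaling.

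Other lipid genes were counted in 8 lists with 68 genes, of which 64 were tested. In these lists 23 genes rose and 4 fell, with a median log2 fold change of 0.45. These counts stand beside the 17.3% of all genes tested and 25.9% of protein-coding genes that were called higher, and lists such as the isoprenoid branch and LXR with sterol export were close to the latter share. Beside the SREBP system, 3 of 8 genes of SREBP processing and sterol-dependent degradation rose. One of them was *ERLIN1*, which takes part in degradation at the endoplasmic reticulum, at 46.8 ± 2.21 CPM with GFP and 71.9 ± 10.04 CPM with ERRg (SD, n = 3; log2 fold change 0.62, SE 0.11, adjusted p = 0.00138). Its call was lost without GFP library 1, ERRg library 3 or ERRg library 4 (lowest log2 fold change 0.57). Of 9 other SREBP-associated genes 3 rose and 1 fell. *SLC25A1*, the mitochondrial carrier that exports the citrate used by ACLY, was at 88.5 ± 5.71 CPM and 209.9 ± 48.2 CPM, with a log2 fold change of 1.25 (SE 0.16, adjusted p = 0.000157). *RDH11*, a retinol dehydrogenase, rose by 0.68. *PANK3*, a kinase of coenzyme A synthesis, was at 247 ± 37.4 CPM and 155 ± 18.3 CPM and fell by 0.67 on the log2 scale, a call that was lost without GFP library 1 (-0.55).

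Among 11 other genes of fatty acid elongation and desaturation 4 rose and 2 fell. *ELOVL1*, an elongase of very long chains, rose by 1.19, *HACD1* and *TECR*, which complete the elongation cycle, by 0.94 and 0.94 on the log2 scale. Those that fell, *ELOVL7* (log2 fold change -1.61) and *ELOVL2* (-1.51), had low counts and were named after their values were seen. In the separate fatty acid synthesis system of mitochondria 4 of 5 tested genes rose, among them *NDUFAB1*, the acyl carrier protein that is also a subunit of complex I, from 44.2 ± 3.91 CPM to 129 ± 29.1 CPM (log2 fold change 1.55, SE 0.16, adjusted p = 6.04e-05). *MCAT*, which loads malonyl units, and *OXSM*, the condensing enzyme, rose by 1.37 and 0.88. None of 4 tested acyl-CoA synthetases passed, with 3 of 4 higher and none lower by the adjusted p alone. In the isoprenoid branch 3 of 11 tested genes rose, with 6 higher and 3 lower by the adjusted p alone. They were *RCE1*, a protease of prenylated proteins, by 0.98, *PDSS1*, of the ubiquinone side chain, by 0.85, and *DHDDS*, of dolichol synthesis, by 0.76. In the list of LXR, the sterol-sensing receptors, and sterol export 2 of 7 genes rose, with 3 higher and 2 lower by the adjusted p alone and a median of -0.02. *NR1H2*, which encodes LXRβ, rose by 1.24. In sterol storage and endosomal transport 4 of 9 tested genes rose and 1 fell, with *GRAMD1A* at 1.01 and *STARD3* at 0.81, both of which carry sterol between membranes, and *OSBPL8*, a lipid exchange protein, at -0.78. Of the genes named from these lists, *ERLIN1*, *PANK3*, *RCE1*, *GRAMD1A*, *STARD3* and *OSBPL8* lost their call both when corrected for GC and length and with a covariate for reads outside genes, and *RDH11*, *HACD1*, *TECR*, *OXSM*, *DHDDS* and *NR1H2* lost it with the covariate. *SLC25A1*, *ELOVL1*, *MCAT* and *NDUFAB1* were called under all 21 alternatives. The plot of the lists places these beside the role groups.

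**Figure D3:**
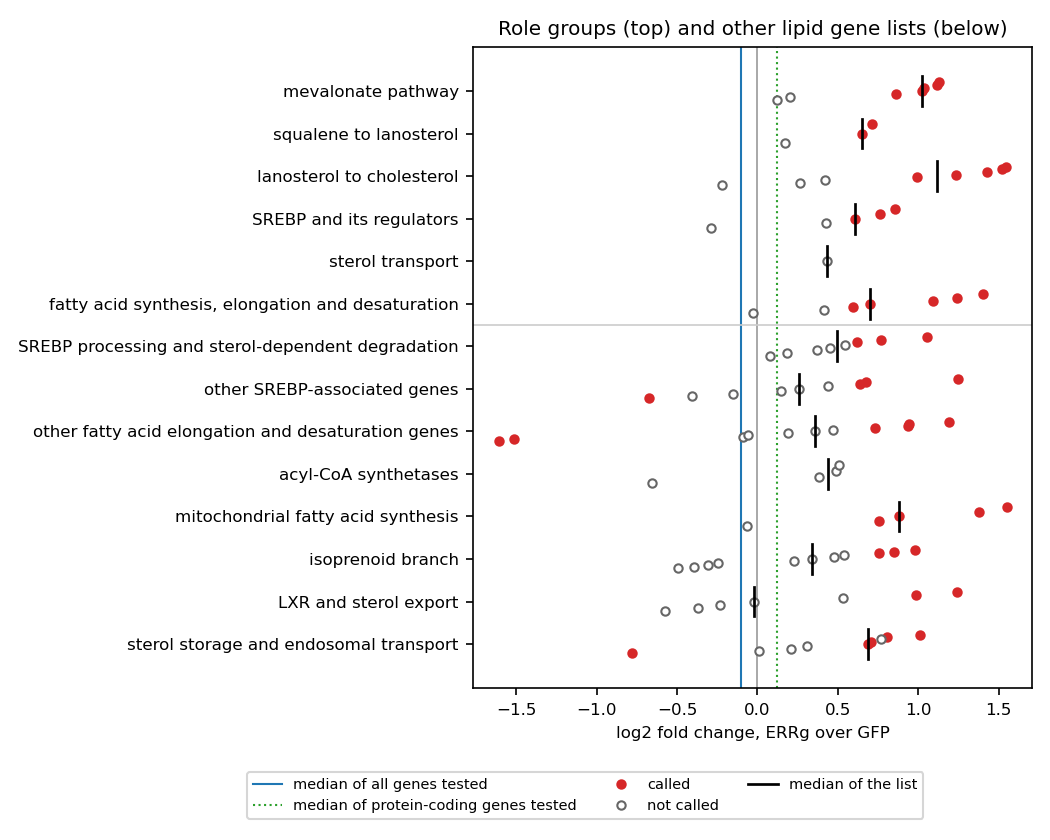
Log2 fold change of ERRg over GFP for each tested gene, one row per role group of the 31 genes (upper 6 rows) and per other lipid list (lower 8 rows), with filled points for genes called and open points for those not called. Black ticks are medians, which run from 0.43 to 1.12 in the role groups and from -0.02 to 0.88 in the other lists, and vertical lines give the medians of all genes tested (-0.10) and of protein-coding genes (0.12).

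The number of genes called depended on the fit. *MVK*, *PMVK*, *FDPS*, *TM7SF2*, *NSDHL*, *EBP*, *DHCR7*, *ACLY*, *SCD* and *FADS2* were called higher under all 21 alternatives, which include a 2-fold limit, and none of the 20 genes that rose changed direction in any of them. Scaling by library size alone moved the median of all genes tested from -0.10 to -0.42 and left 12 of the 31 genes higher and 1 (*INSIG2*) lower. Correcting for GC and length left 13 higher, and entering each library's reads outside genes (their share) as a covariate left 14. That share was lower in every ERRg library than in any GFP library, so this covariate cannot be fully told apart from the group. Of all genes tested, 8.98% were called higher with library size scaling, 13.6% with the correction and 7.24% with the covariate, against 17.3% without these. *SREBF1*, *FASN*, *LSS*, *SQLE*, *SCAP* and *FADS1* lost their call with library size scaling, the correction and the covariate alike. *SREBF2* lost it with library size scaling and the correction, *ACAT2* with library size scaling and the covariate, and *MVD* with the correction. *STARD4* was called higher with the correction and with the covariate.

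**Figure D4:**
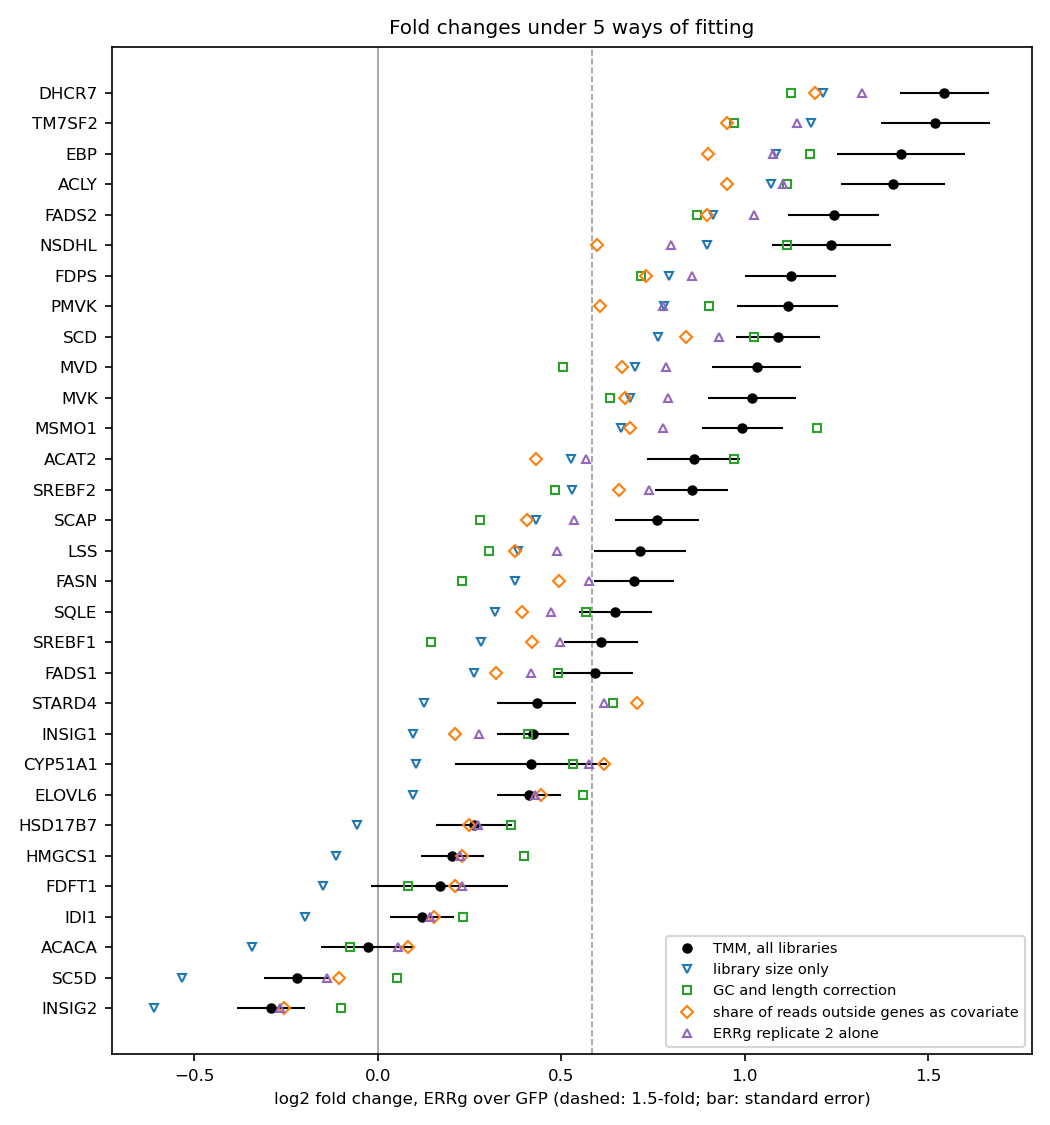
Log2 fold change of ERRg over GFP for each gene in the fit reported here (black, with its standard error) and under library size scaling, correction for GC content and length, the covariate for reads outside genes, and ERRg library 2 alone. The dashed line marks 1.5-fold, and the 10 genes called under every alternative lie to the right of it with each symbol.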

How the data were processed

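RNA of 6 libraries, 3 per group, was measured by directional sequencing after removal of ribosomal RNA. The values are raw counts per gene that the authors deposited in a table of 67060 genes and 5 summary entries. Per the submitters' processing notes, reads were handled with Trim Galore 0.6.7, STAR 2.7.9a and HTSeq 0.11.3 on GRCh38; the annotation release and strand setting are not given in the sources used here. The summary entries (reads on no counted feature, called reads outside genes, and ambiguous reads or reads aligned to several places) stayed out of library sizes. Of these only the share of reads outside genes entered a fit, as a covariate in an alternative. Groups and replicate numbers came from the sample titles. Identifiers were matched without version to GENCODE release 44 (60419 genes, 90.1%), and the others held 0.153% of the counts. Coordinates are GENCODE positions on GRCh38, 1-based.

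Counts were fitted in R 4.3.3 with edgeR 4.0.16: filterByExpr (24500 genes), TMM scaling and the quasi-likelihood test of ERRg against GFP, with Benjamini-Hochberg adjustment over all genes tested. Calls needed an adjusted p below 0.05 and a 1.5-fold change. Standard errors (SE) divide the size of the log2 fold change by the root of its F statistic. Levels between genes are CPM per kilobase of all annotated exons. An exact permutation test of 3 against 3 libraries cannot go below p = 0.1, so single values were not tested that way. The members, lists and tests were chosen with earlier results of these data known. The genes named are the 31, *ESRRG*, and of each other list up to 3 called genes, those with the largest changes among genes averaging 50 counts or more. A few genes this rule selects are left unnamed here.

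Alternatives were DESeq2 1.42.0, RLE or library size scaling, no filter or a minimum of 10 counts per library, no fold limit or a 2-fold limit, a test against 1.5-fold, only protein-coding genes, leaving out each library, a block by replicate number, correcting for GC and length (mgcv 1.9.3, with values for 98.9% of tested genes), the last 2 combined, and a covariate for reads outside genes. ERRg library 2 alone and protein-coding genes with their own scaling were added after seeing the data. On simulated data edgeR recovered 84 of 100 genes changed 2-fold and 100 of 100 changed 4-fold, with 9 false calls among 24128 genes. The simulation changed 200 genes, as many up as down, and held no shift tied to GC content or length between groups. Its count of false calls therefore need not hold for these data, where 34.1% of genes tested were called. Tables and plots were made in Python 3.11.15 with pandas 2.3.3, numpy 2.4.6 and matplotlib 3.10.9.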

Additional observations from a re-analysis of the deposited data

Results flagged for a closer look

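The summary entries for ambiguous reads and for reads aligned to several places, which no comparison used, held higher shares in the ERRg libraries than in any GFP library. Ambiguous reads, which fall on more than one gene, made up 5.69%, 9.84% and 9.79% of the reads in ERRg libraries 2, 3 and 4, against at most 4.87% with GFP. Reads aligned to several places made up 9.33%, 12.7% and 13.0%, against at most 7.41% with GFP. Neither kind of read is in any gene's count, and their part in the values of the synthesis genes was not tested.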

How the results depend on the processing

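The count of 20 genes called higher was between 14 and 23 under 18 of the 21 alternatives. It was 12 with library size scaling, 11 with a 2-fold limit and 13 when corrected for GC and length. Of all genes tested, 8.98% were called higher with library size scaling, 7.97% with a 2-fold limit and 13.6% when corrected, against 17.3% without these. With each library left out the count was 18 to 21. The count called lower was 1 with library size scaling and 1 without a fold limit, and 0 otherwise, also with each library left out. The median log2 fold change of 0.71 was 0.38 with library size scaling, 0.53 when corrected for GC and length, 0.53 when the replicate block was added to this, 0.49 with the covariate, and 0.64 to 0.92 with each library left out, the highest value being without ERRg library 2.

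Sign changes were seen in 6 genes, none of them called. With library size scaling *HMGCS1* was at -0.11, *IDI1* at -0.20, *FDFT1* at -0.15 and *HSD17B7* at -0.057. *IDI1* was at -0.015 with protein-coding genes scaled on their own. *SC5D* was at 0.053 when corrected for GC and length, and at 0.089 with the block added, where *FDFT1* was at -0.0466. *ACACA* was at 0.063 with DESeq2, 0.050 with RLE scaling, 0.082 with the covariate, 0.054 with ERRg library 2 alone, and -0.091 to 0.088 with each library left out (0.088 without GFP library 4, 0.039 without ERRg library 2 and 0.0027 without ERRg library 3). The cause was not tested for any of these. Over the 31 genes, 561 of 651 values kept their direction and their side of the threshold.

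The groups share only the numbers 3 and 4. Deviations of libraries with the same number from their group means had correlations of 0.075 and -0.0001 over 24500 genes. For libraries with unlike numbers they were 0.0999 (GFP 3 with ERRg 4) and 0.018 (GFP 4 with ERRg 3). With 3 libraries per group, and ERRg library 2 apart from the others, these values cannot decide whether equal numbers mark a shared batch. In the replicate block GFP library 1 and ERRg library 2 each have a number of their own, so they add nothing to the contrast. That fit rests on libraries 3 and 4 of each group. It leaves out the ERRg library with the smallest changes in the genes that rose. With this block 20 genes were higher, 0 lower, and the median was 0.84. Split by direction, 61.4% of all calls were higher in the test against 1.5-fold and 66.9% among protein-coding genes, against 50.7%. *FDFT1* and *CYP51A1* had at most 90 counts in any library and the largest standard errors of the 31 genes (0.19 and 0.21), and what kept their counts low was not tested.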
